A study of Homo sapiens with 66 samples.

Results

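The nuclear-encoded subunits of the oxidative phosphorylation complexes were followed through CRISPR targeting of HNRNPC and ADAR in THP-1 cells. A gene was a member if it was protein coding, was encoded in the nucleus and carried a name of the families NDUFA, NDUFB, NDUFC, NDUFS, NDUFV, SDH, UQCR, COX4 to COX8 or ATP5. Assembly factors (NDUFAF genes) were not members, and neither were subunits with other names, such as CYC1 and NDUFAB1. This rule found 89 genes of 57820 in the gene tables, with 39 genes named for complex I, 4 for complex II, 9 for complex III, 17 for complex IV and 20 for complex V. The rule itself used no measured value, although earlier results of these data were known when the members were chosen.

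Oxidative phosphorylation takes place in the inner mitochondrial membrane. Complex I takes electrons from NADH and complex II from succinate, complexes III and IV pass them on to oxygen, and complex V, the ATP synthase, makes ATP from the proton gradient that results. Most subunits are encoded in the nucleus, translated in the cytosol and imported, while a few core subunits are encoded by mitochondrial DNA, so that the cell has to match transcripts of both genomes. NDUFA4 is grouped here with complex I by its name, although the protein is known as a subunit of cytochrome c oxidase (complex IV).

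RNA-seq study 1 used a THP-1 clone labelled STING deficient and cas9 transgenic, a line of human monocytic cells from a leukemia. Cells received a pair of gRNAs by nucleofection. CTRL cells had nontarget gRNA (NC1) in both places, hnRNPC-, ADAR- and GFP-targeted cells had 1 targeting gRNA with NC1, and ADAR+hnRNPC cells had both targeting gRNAs. Whole-cell RNA was taken on days 3, 4 and 5 with 3 replicates per group, and a further group of CTRL cells received IFN-alpha and was harvested on day 4. RNA-seq study 2 used a clone labelled WT and cas9 transgenic on day 4 with 2 replicates per group, from total RNA and a digitonin-soluble (cytosolic) fraction of CTRL, hnRNPC-, ADAR- and ADAR+hnRNPC-targeted cells, and from the digitonin-insoluble fraction, enriched for nuclei and mitochondria, of hnRNPC-targeted cells. Targeted cells were pools and not single-cell clones of the knockout, and each study rests on 1 clone. All groups of study 1, the controls included, lacked STING, an adaptor in the sensing of cytosolic DNA.

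Gene counts per library ranged from 95107690 to 152829008 in study 1 and from 49666958 to 73873756 in study 2. HNRNPC was at 725 to 869 CPM (counts scaled to the size of the library) in CTRL libraries of study 1, at 312 to 381 CPM in hnRNPC-targeted libraries and at 294 to 417 CPM in ADAR+hnRNPC libraries. On day 5 these 2 targeted groups did not overlap, with 312 to 323 CPM in hnRNPC-targeted and 376 to 417 CPM in ADAR+hnRNPC libraries. ADAR RNA was little changed in ADAR-targeted libraries of study 1, at 355 to 392 CPM on day 3 and 349 to 385 CPM on day 4, below CTRL (417 to 436 and 398 to 416 CPM), and at 373 to 396 CPM on day 5, where it overlapped with CTRL (364 to 412 CPM). ADAR+hnRNPC libraries of day 5 held 1165 to 1509 CPM of ADAR, so its RNA level was a weak check of the ADAR label there. In study 2, ADAR was at 447.6 and 563.7 CPM in ADAR-targeted and at 858 and 869 CPM in CTRL total RNA. In study 2, the CTRL total RNA libraries stood apart from each other, with HNRNPC at 581 and 910 CPM and 0.803 and 0.930% of the counts on the 89 genes. The 10 monocytic markers together held 323 to 862 CPM in study 1, while 4 T cell markers reached at most 0.299 CPM and 3 epithelial markers at most 0.142 CPM. The 3 B cell markers held 2.07 to 6.46 CPM.

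Of the 89 members, 79 passed the filter on low counts in study 1 and 80 in study 2. The 10 that did not pass in study 1 were the tissue isoforms COX4I2, COX6A2, COX6B2, COX7A1, COX7B2 and COX8C, the readthrough genes ATP5MF-PTCD1 and NDUFC2-KCTD14, and ATP5MGL and NDUFA7. ATP5MGL passed in study 2. COX4I2, COX6A2 and COX7B2, isoforms known from lung, muscle and testis, had at most 3 counts in any library of study 1. A total of 16 members share over 20% of their exon bases with another gene, among them NDUFA13, NDUFV2, NDUFS7, NDUFC2 and COX8A, and reads in shared bases cannot be assigned to 1 gene. NDUFA13 and NDUFV2, which were at only a few CPM, are therefore uncertain, as are UQCRH and its near-identical copy UQCRHL.

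Levels of the complexes differed within the CTRL libraries of day 5. Levels per transcript length, in CPM per kb of the canonical transcript, had a median of 303 over the 11 tested complex IV genes, 140 over the 18 of complex V, 104 over the 9 of complex III, 74.4 over the 37 of complex I and 57.1 over the 4 of complex II. UQCRH, the hinge protein of complex III, was the highest at 926 ± 43.2 CPM per kb (SD, n = 3), followed by COX7A2 of complex IV at 760 ± 34.9. The catalytic β subunit of the ATP synthase, ATP5F1B, stood at 360 ± 18.2 CPM per kb, above the α subunit ATP5F1A at 149 ± 7.18. Within complex II, the iron-sulfur subunit SDHB was at 82.4 ± 2.62, the membrane anchor SDHD at 72.3 ± 2.42, the flavoprotein SDHA at 41.8 ± 1.64 and the other anchor SDHC at 32.3 ± 3.20 CPM per kb. The 3 genes of the c ring, which encode the same mature protein, were led by ATP5MC2 (389 ± 21.9), with ATP5MC1 at 117 ± 9.49 and ATP5MC3 at 79.8 ± 5.28 CPM per kb. These values depend on the transcript chosen, and genes whose canonical transcript is long, such as NDUFS1 at 11660 nt (15.9 ± 1.03 CPM per kb), appear low. Without division by length, some of these orders reversed. In CPM, ATP5F1A (5761 nt) lay above ATP5F1B (1759 nt), and ATP5MC3 (2587 nt) above ATP5MC1 (646 nt). SDHA (2693 nt) lay above SDHB (1015 nt) and SDHD (1339 nt).

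Promoters of 70 members were found among the RefSeq promoters (GRCh38.p14, from 250 bases before to 50 bases after the start of each gene). Nuclear respiratory factor 1 (NRF1) and ETS factors of the GABP family are the regulators best known for these genes, so the palindromic core of the NRF1 motif, which stands in capitals in the first 4 sequences printed here, and the ETS letters CCGGAAG were searched on both strands. The NRF1 letters, which read the same on both strands, were in 4 of 70 promoters (5.71%) against 1.36% of all 27305, and the ETS letters in 20 (28.6%) against 10.7%. The 4 NRF1 matches, and 1 ETS match each of UQCRH and ATP5MK, whose values are given beside the ADAR+hnRNPC comparison, read as follows on the strand of the gene, with the matched letters in capitals.
NDUFB4: gagcacttcGCGCATGCGCatatcaccg
NDUFA8: ttgccggatGCGCATGCGCaggcgccgt
ATP5F1C: ggagcttcgGCGCATGCGCgctgaggcc
SDHD: gctgtgtttGCGCATGCGCgacgggtgt
UQCRH: tgtgccgcaCTTCCGGccagatcgc
ATP5MK: gcaattcttCCGGAAGtgtgggcgg
A match is a stretch of letters and not a measured binding site. UQCRH and ATP5MK were among the members that fell most in ADAR+hnRNPC cells of day 5, while NDUFA13, which also had ETS letters, was higher there. Whether the letters go with a change was not tested. The promoters of all genes were not matched to those of the members for base composition or expression.

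The share of a library's counts on the 89 genes fell in ADAR+hnRNPC cells. CTRL cells had a share of 0.997 ± 0.0229% at day 3, then 0.954 ± 0.0600% and, at day 5, 0.980 ± 0.0293% (SD over 3 libraries). ADAR+hnRNPC libraries held 0.957 ± 0.0309%, 0.830 ± 0.00286% and 0.673 ± 0.0466% on the same days. On day 5 they ranged from 0.636 to 0.725%, below every CTRL library (0.947 to 1.00%). In hnRNPC-targeted cells the share was 1.00 ± 0.00891%, 0.928 ± 0.0336% and 0.844 ± 0.0255%, and only on day 5 did all libraries lie below CTRL. ADAR-targeted (0.930 ± 0.0377%) and GFP-targeted libraries (0.978 ± 0.0278%) of day 5 and IFN-alpha libraries of day 4 (0.963 ± 0.0510%) overlapped with CTRL. An exact permutation test (two-sided, 3 against 3 libraries) gave p = 0.1, the smallest it can give, for ADAR+hnRNPC on days 4 and 5 and for hnRNPC on day 5, so this test cannot reach 0.05 with 3 libraries per group. In these bulk samples, fewer cells that express a gene and less of its RNA per cell cannot be told apart.

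**Figure D1:**
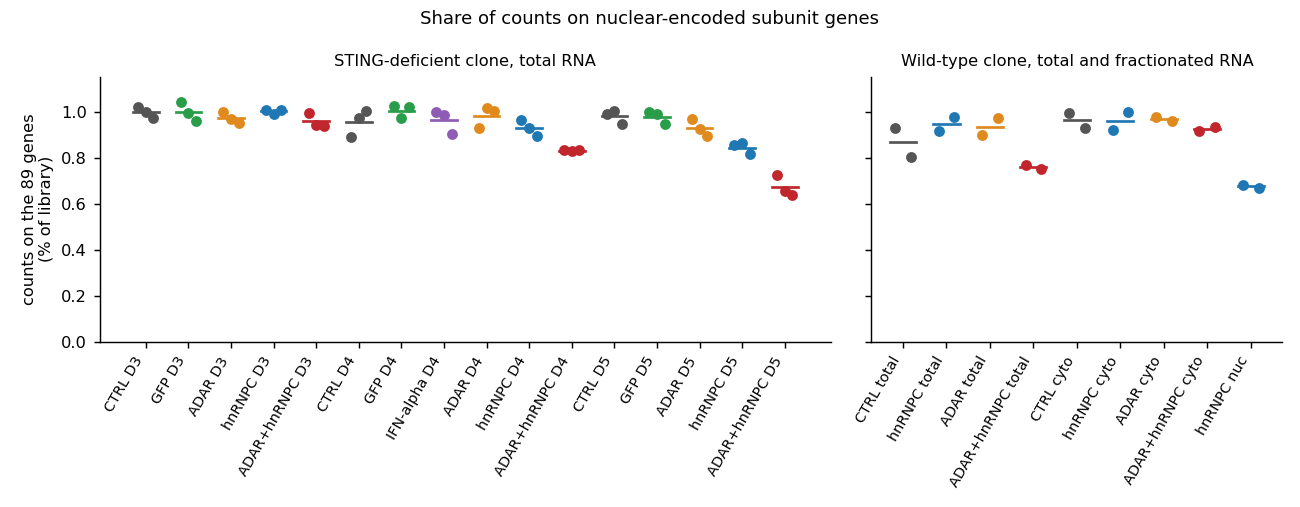
Share of gene counts on the 89 subunit genes (y axis, % of the library's counts) for each library, by group, in study 1 (left) and study 2 (right). Points are libraries and bars are means. ADAR+hnRNPC libraries of day 5 lie at 0.636 to 0.725%, below all CTRL libraries of that day.

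On day 5, transcripts of all 5 complexes were lower in ADAR+hnRNPC than in CTRL cells. Of 79 tested members, 68 were lower and 2 higher at an adjusted p of at most 0.05 (edgeR quasi-likelihood test, Benjamini-Hochberg adjustment over all tested genes), while 39.0% of all 13187 tested genes were lower and 34.5% higher. The median log2 fold change was -0.62 over the members and -0.04 over all genes. At the thresholds of the study (a log2 fold change of 1 or more in size, with the same limit on the adjusted p), 9 members were lower and 0 higher, against 6.23% and 9.38% of all genes. Without ADAR+hnRNPC D5 replicate 1, 14 members were lower at these thresholds, and without CTRL D5 replicate 3, 1 was higher. By complex, the median log2 fold change was -0.74 over complex V (16 of 18 lower), -0.71 over complex IV (10 of 11), -0.65 over complex III (8 of 9), -0.49 over complex I (30 of 37) and -0.45 over complex II (4 of 4). CTRL libraries of a day serve all comparisons of that day, so the counts of different gRNA groups are not independent. The mRNAs of GAPDH and ACTB, used here as markers of cytosolic mRNA, were lower as well, at -0.42 ± 0.07 and -0.65 ± 0.08. A fall was thus also seen outside the subunits, but 2 genes do not show how common a fall of this size was.

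Of the 9 members past the thresholds of the study, 5 were named for complex I, of 37 tested, and 2 for complex III, of 9 tested. NDUFB6, an accessory subunit of the membrane arm, was at 35.8, 39.7 and 35.8 CPM in CTRL libraries of day 5 and at 16.6, 14.9 and 14.4 CPM in ADAR+hnRNPC libraries. Its log2 fold change was -1.28 ± 0.08 (SE; adjusted p = 1.4e-16). NDUFA2, an accessory subunit of the matrix arm, was at 42.4, 45.6 and 41.3 CPM against 20.5, 17.9 and 18.5 CPM. Groups did not overlap for either gene, and NDUFA2 had a log2 fold change of -1.19 ± 0.08 (adjusted p = 9.4e-16). NDUFS5 (-1.05) and NDUFC2 (-1.02), further accessory subunits, were also under this limit, although NDUFC2 shares exon bases with a readthrough gene.

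Members of complexes III, IV and V were also among the 9. UQCRH of complex III was at 478, 523 and 491 CPM in CTRL libraries and at 249, 219 and 207 CPM in ADAR+hnRNPC libraries, a log2 fold change of -1.14 ± 0.08 (adjusted p = 2.1e-15). UQCRHL had -1.16 ± 0.14, but its reads cannot be told apart from those of its near-identical copy UQCRH, so the pair may be a single measurement. COX6C, a small structural subunit of complex IV, went from 280, 301 and 287 to 152, 132 and 130 CPM. Its libraries did not overlap, and the log2 fold change was -1.07 ± 0.08 (adjusted p = 1.6e-14). NDUFA4, grouped by name with complex I, was at 145, 165 and 153 CPM against 79.2, 66.4 and 67.9 CPM (-1.12 ± 0.09). ATP5MK, a small subunit of the membrane part of the ATP synthase, was at 118, 136 and 126 CPM against 64.4, 56.6 and 56.2 CPM (-1.10 ± 0.08, adjusted p = 2.7e-15).

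Core subunits changed less evenly. Among core subunits of complex I, NDUFV1, which binds NADH and the flavin, had a log2 fold change of -0.84 ± 0.07, NDUFS3 of -0.57 ± 0.06, NDUFS8 of -0.43 ± 0.09 and NDUFS1 of -0.35 ± 0.06, all with an adjusted p under the threshold. NDUFS7 (0.15 ± 0.16, adjusted p = 0.40) and NDUFV2 (0.12 ± 0.28, adjusted p = 0.71) did not pass, and both share exon bases with other genes. In complex II, SDHC had -0.90 ± 0.08 and SDHA -0.69 ± 0.05, against -0.22 ± 0.07 for SDHD and -0.20 ± 0.06 for SDHB. SDHA libraries held 116, 114 and 108 CPM in CTRL and 73.7, 72.0 and 63.7 CPM in ADAR+hnRNPC cells. All 4 subunits of succinate dehydrogenase were lower. Of the 3 c ring genes, ATP5MC2 (-0.78 ± 0.07) and ATP5MC3 (-0.78 ± 0.07) changed alike. In mean CPM per kb, ATP5MC2 was at 389 in CTRL and 226 in ADAR+hnRNPC cells, and ATP5MC3 at 79.8 and 46.35. The third gene, ATP5MC1, was at 117 and 58.8 CPM per kb. COX4I1, the isoform of the COX4 subunit found in most tissues, had -0.78 ± 0.06 against a level of 231, 247 and 221 CPM in CTRL libraries.

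Few members went against this direction. NDUFA4L2, a paralog of NDUFA4 known as a target of hypoxia-inducible factor, was at 2.34, 2.10 and 3.88 CPM in CTRL libraries and at 5.35, 4.72 and 4.98 CPM in ADAR+hnRNPC libraries. Its log2 fold change was 0.85 ± 0.21 (adjusted p = 0.00043), and its level stayed far under that of NDUFA4. NDUFA13, also known as GRIM-19, was higher at 0.68 ± 0.22 (adjusted p = 0.0059), from 1.78 to 2.74 CPM in CTRL libraries. The 9 members that did not pass were ATP5F1D, ATP5IF1, COX7A2L, NDUFA9, NDUFS4, NDUFS7, NDUFV2, NDUFV3 and UQCRFS1. Of these, UQCRFS1 is the Rieske protein of complex III (-0.03 ± 0.07), and ATP5IF1 is the inhibitor of ATP hydrolysis by complex V (0.09 ± 0.08).

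The difference grew with the days in study 1. On day 3, 13 members were lower and 0 higher in ADAR+hnRNPC cells, against 16.7% and 12% of all tested genes, with a median log2 fold change of -0.08. DESeq2 called 13 lower and 3 higher, and 14 and 4 were called with the GC trend taken out. At an unadjusted p of 0.05, 3 were higher on day 3 by edgeR. On day 4, 58 were lower and 2 higher (31.6% and 25.5% of all genes), with a median of -0.31. In 68 of 79 members the log2 fold change fell from day to day, and 12 members were lower on all 3 days. No member was called in opposite directions on different days. These counts over days were not made for all tested genes, so they are not shown to be a trait of the subunits. NDUFB6 had -0.29 ± 0.08, -0.85 ± 0.08 and -1.28 ± 0.08 on days 3, 4 and 5.

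**Figure D2:**
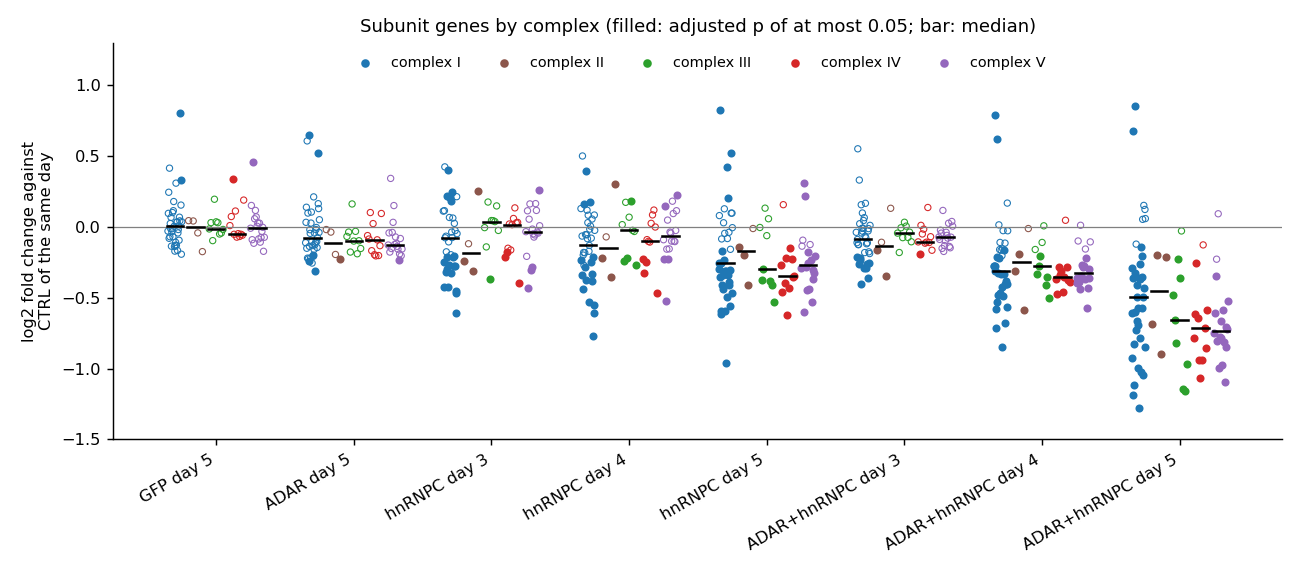
Log2 fold change of each tested subunit gene against CTRL libraries of the same day (y axis) for 8 comparisons of study 1 (x axis), colored by complex. Filled points passed the adjusted p threshold of 0.05, and black bars are medians. In ADAR+hnRNPC cells the medians of all complexes move down from day 3 to day 5, where complexes IV and V reach -0.71 and -0.74.

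Total RNA of the WT clone in study 2 shares no library with study 1. There, 43 of 80 members were lower and 0 higher in ADAR+hnRNPC cells on day 4, against 22.3% and 12.4% of 13637 tested genes, with a median log2 fold change of -0.41 over the members and -0.12 over all genes. GAPDH (-0.57 ± 0.13) and ACTB (-0.70 ± 0.13) were lower in the same comparison. Of the 58 members lower on day 4 of study 1 and the 43 lower in study 2, 39 were the same (67.2% and 90.7%). Of 79 members tested in both, 71 had a negative log2 fold change in both. Taken singly, 72 of 79 were negative on day 4 of study 1 and 76 of 80 in study 2. Counts this high overlap widely even without agreement gene by gene, and the overlap over all tested genes was not counted. NDUFB7, an accessory subunit of complex I, was at 42.9 and 35.4 CPM in CTRL and 24.1 and 24.3 CPM in ADAR+hnRNPC libraries (-0.70 ± 0.13, adjusted p = 0.00071). COX4I1 was at 297 and 237 against 185 and 181 CPM (-0.54 ± 0.13), and NDUFV1 at 171 and 125 against 96.6 and 96.9 CPM (-0.61 ± 0.14). For UQCRH, the groups were at 465 and 312 against 257 and 229 CPM, with the CTRL libraries farther from each other than the lower one was from the ADAR+hnRNPC libraries. The count rested on single libraries: 6 members were lower and 1 higher without CTRL total replicate 1, 55 were lower without CTRL total replicate 2, and 22 and 18 were lower without ADAR+hnRNPC replicate 1 and 2.

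Targeting of HNRNPC alone gave a weaker and less uniform picture. On days 3 and 4, 24 and 25 members were lower (25.4% and 28% of all tested genes) and 7 and 7 higher (12.6% and 23.4%), with medians of -0.04 and -0.09. On day 5, 53 were lower and 6 higher, against 35.2% and 29.5% of all genes, and the median was -0.27 over the members and -0.03 over all genes. None passed the thresholds of the study, which 3.75% of all genes passed as lower and 3.96% as higher on day 5. Without hnRNPC D5 replicate 1, 2 members were higher on that day instead of 6. Lower on day 5 were 10 of 11 complex IV, 13 of 18 complex V, 5 of 9 complex III, 3 of 4 complex II and 22 of 37 complex I genes. NDUFB6 was the lowest, at 19.3, 19.8 and 18.1 CPM on day 5 against the CTRL values of 35.8 to 39.7 (-0.96 ± 0.08, adjusted p = 8.7e-13), followed by COX6C at -0.62 ± 0.08 and NDUFA4 at -0.61 ± 0.09.

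Complex I had the members with the lowest adjusted p on day 3. NDUFV1 was at 125, 125 and 120 CPM against 174, 168 and 165 CPM in CTRL libraries (-0.46 ± 0.07, adjusted p = 1.4e-06), and was also lower on day 4 (-0.61 ± 0.07) and day 5 (-0.46 ± 0.07). NDUFS8, an iron-sulfur subunit of complex I, had -0.47 ± 0.09 and -0.55 ± 0.09 on days 3 and 4 but 0.10 ± 0.09 on day 5. NDUFC1 was higher on all 3 days, at 84.7, 85.3 and 94.1 against 71.7, 76.8 and 74.2 CPM on day 3 (0.25 ± 0.07), although it shares exon bases with another gene. NDUFB1, an accessory subunit, was higher on days 3 and 4 (0.40 ± 0.09 and 0.39 ± 0.09), as was SDHD (0.25 ± 0.07 and 0.30 ± 0.07). In all, 12 members were lower on all 3 days and 8 were called lower on 1 day and higher on another. The shares of all tested genes that did so were not counted. In total RNA of study 2, 0 of 80 members were called in either direction (2.08% of all genes were higher and 3.04% lower) by edgeR. At an unadjusted p of 0.05, edgeR had 6 higher and 1 lower, DESeq2 called 3 higher, and 28 were higher without CTRL total replicate 1.

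Part of the pattern moved with base composition. The GC share of the members' canonical transcripts ranged from 34.6 to 69.6%. Across the 79 tested members, which share libraries, the Pearson correlation of log2 fold change with GC share was -0.593 for hnRNPC day 3, -0.520 for day 4 and 0.478 for day 5, 0.779 for ADAR day 5, 0.746 for GFP day 5 and 0.265 for ADAR+hnRNPC day 5. Over the 12937 tested genes with a GC share, these values were -0.321, -0.184, 0.348, 0.525, 0.625 and 0.0893. They describe genes, which are not independent replicates, and the sign for hnRNPC turned between days 4 and 5. With a GC trend taken out of every library, an alternative chosen after seeing the data, 65 members were lower and 4 higher in ADAR+hnRNPC cells of day 5, of which 5 were lower at the thresholds of the study instead of 9. In hnRNPC-targeted cells of day 5, 45 were lower and 6 higher, with a median of -0.16, and on day 3 the split moved from 24 lower and 7 higher to 17 and 10. DESeq2 gave 22 and 15 for that day. The shares of all tested genes were counted only for the main fit. They are not known with the GC trend taken out or by DESeq2, here and in other paragraphs.

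**Figure D3:**
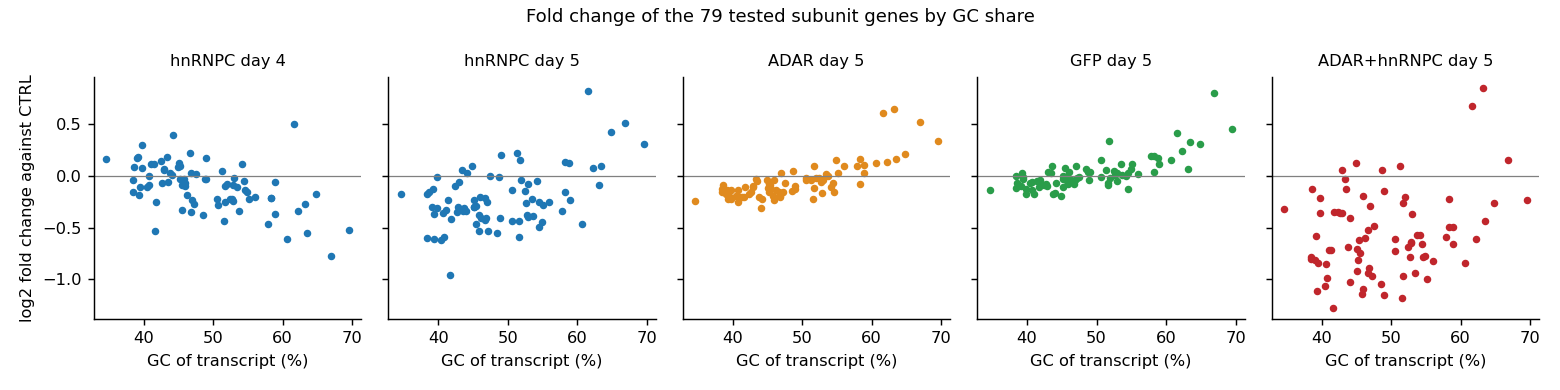
Log2 fold change of the 79 tested subunit genes against CTRL (y axis) by the GC share of the canonical transcript (x axis, %) in 5 comparisons of study 1. Each point is a gene. Genes of high GC share lie higher in ADAR- and GFP-targeted cells of day 5 (r of 0.779 and 0.746) and lower in hnRNPC-targeted cells of day 4 (r of -0.520).

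NDUFS7 was among the 8 members called in both directions. NDUFS7, a core iron-sulfur subunit of complex I, was at 17.5, 18.4 and 21.0 CPM in hnRNPC-targeted cells against 25.1, 31.3 and 30.6 CPM in CTRL cells on day 3, and at 32.4, 22.4 and 23.4 against 20.7, 16.8 and 17.1 CPM on day 5. Its log2 fold changes were -0.61, -0.77 and 0.52 on days 3, 4 and 5, and CTRL itself moved from 30.1 to 35.9 CPM on day 4 to the day 5 values. GFP-targeted libraries of day 5, at 36.2, 31.1 and 28.2 CPM, lay above the same CTRL libraries by 0.81 ± 0.16 (adjusted p = 0.0072).

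ADAR targeting alone changed few members. On day 5, 5 members were lower and 2 higher, against 4.78% and 4.45% of all tested genes, with a median of -0.10 over the members and -6.42e-05 over all genes. NDUFC2 had -0.31 ± 0.07 (adjusted p = 0.0063), NDUFA5 -0.24 ± 0.07, NDUFB4 -0.20 ± 0.06 and SDHD -0.23 ± 0.07, while NDUFS7 (0.52 ± 0.16) and NDUFA4L2 (0.65 ± 0.21) were higher. GFP targeting, a second control, had 4 members higher and 0 lower (5.36% and 1.94% of all genes), which were NDUFS7, NDUFS8 (0.33 ± 0.09), ATP5F1D (0.46 ± 0.13) and COX5B (0.34 ± 0.10). With the GC trend taken out, 2 members were lower and 0 higher for ADAR and 0 were called for GFP, where ATP5F1D went from 0.46 to -0.02. DESeq2 called 14 lower and 3 higher for ADAR, and 7 higher and 2 lower for GFP. With the replicate number as a block, which pairs same-numbered libraries, ADAR had 8 lower and 3 higher. Leaving out single libraries gave 0 to 8 members for ADAR, with 0 without ADAR D5 replicate 3, and 0 to 7 for GFP, with 0 without CTRL D5 replicate 2. At an unadjusted p of 0.05, edgeR had 5 lower for GFP. With GFP libraries in place of CTRL, 0 members were called for ADAR on day 5, and 49 were lower and 1 higher for hnRNPC. In total RNA of study 2, ATP5IF1 alone was higher in ADAR-targeted cells (0.36 ± 0.11, adjusted p = 0.039), at 61.0 and 66.4 against 53.8 and 45.6 CPM, where 9.02% of all genes were higher and 3.88% lower. Without CTRL total replicate 1, 30 members were higher, and 0 were called without any of the other libraries of this comparison.

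IFN-alpha, a type I interferon that cells in culture sense through a surface receptor, changed few members on day 4 of study 1. Of 79, 6 were higher and 2 lower, against 11.1% and 7.19% of all tested genes, with a median of 0.06. NDUFA9, an accessory subunit of complex I that was measured at a low level, was at 10.3, 10.9 and 12 CPM against 7.38, 7.63 and 7.94 CPM (0.53 ± 0.10, adjusted p = 7.2e-05). ATP5MC1 (0.36 ± 0.08), SDHB (0.28 ± 0.06) and COX6B1 (0.25 ± 0.07) were higher, and ATP5IF1 (-0.29 ± 0.08) and NDUFB10 (-0.21 ± 0.07) lower. Without IFN-alpha D4 replicate 3, 4 members were called. ADAR, itself an interferon-stimulated gene, was at 1053 to 1373 CPM in the IFN-alpha libraries.

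The interaction of ADAR and hnRNPC targeting on day 5 asks whether ADAR+hnRNPC cells differ from the sum of both changes. HNRNPC RNA itself was higher in ADAR+hnRNPC (376 to 417 CPM) than in hnRNPC-targeted libraries (312 to 323 CPM) of that day. It was negative and past the threshold for 41 of 79 members and positive for 1, against 23.7% and 23.9% of all tested genes. The median was -0.29 over the members and -0.03 over all genes. GAPDH (-0.62 ± 0.10) and ACTB (-0.52 ± 0.11) were also negative past the threshold. Across the members, the interaction correlated with GC share at r = -0.590 (-0.363 over all genes). With the GC trend taken out, 49 members were negative and 2 positive, but the shares of all genes were not counted for that fit. COX6B1, a subunit on the intermembrane side of complex IV, was at 148, 163 and 146 CPM in CTRL, 140, 133 and 118 in hnRNPC-targeted, 164, 154 and 146 in ADAR-targeted and 84.3, 83.2 and 70.9 CPM in ADAR+hnRNPC cells. ADAR+hnRNPC libraries lay below all others, hnRNPC-targeted libraries were just below CTRL and ADAR-targeted ones, and the interaction was -0.74 ± 0.11 (adjusted p = 4.4e-07). SDHA (-0.53 ± 0.07, adjusted p = 1.8e-07), NDUFA11 (-0.83 ± 0.12) and ATP5MC1 (-0.74 ± 0.12) followed. NDUFS4, an accessory subunit of the matrix arm, was the exception at 0.46 ± 0.10 (adjusted p = 0.00040), with 46.3, 51.1 and 52.0 CPM in CTRL, 40.1, 42.5 and 38.4 in hnRNPC-targeted and 54.2, 48 and 52.9 CPM in ADAR+hnRNPC cells. For complex V, 13 of 18 members were negative past the threshold, and for complex I, 14 of 37.

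Other genes of the pathway were counted in the same way. The subunits CYC1 and NDUFAB1, whose names lie outside the rule, were counted among the assembly factors and partner proteins. Of 55 tested assembly factors and partner proteins, 28 were lower and 9 higher in ADAR+hnRNPC cells of day 5 (median -0.21), and 27 were lower and 6 higher in hnRNPC-targeted cells (median -0.16), where 39.0% and 34.5%, and 35.2% and 29.5%, of all tested genes were lower and higher. Their interaction was positive past the threshold for 14 and negative for 8, against 23.9% and 23.7% of all genes. Of 11 tested regulators, 5 were lower and 4 higher in ADAR+hnRNPC cells, shares near those of all genes, with GABPA, the DNA-binding subunit of GABP, at -0.64 ± 0.08 and TFAM, which packages mitochondrial DNA, at -0.55 ± 0.07, and with NRF1 at 0.21 ± 0.06, ESRRA at 0.49 ± 0.10 and PPARGC1B at 0.51 ± 0.09. Of the 13 mRNAs encoded by mitochondrial DNA, 2 were lower and 0 higher (median -0.16). The share of counts on these 13 mRNAs was 0.209 to 0.321% in CTRL libraries of day 5 and 0.199 to 0.222% in ADAR+hnRNPC libraries, which overlapped.

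In hnRNPC-targeted cells of the WT clone, most subunit transcripts were higher in the cytosolic than in the digitonin-insoluble fraction. Of 80 tested members, 58 were higher and 7 lower, against 45.2% and 25.7% of all tested genes. At the thresholds of the study, 33 were higher and 2 lower, against 15.5% and 14.9%. The median was 0.88 over the members and 0.27 over all genes. By complex, 9 of 9 complex III genes (median 1.18), 18 of 19 complex V genes (1.02), 9 of 11 complex IV genes (0.94) and 20 of 37 complex I genes (0.53) were higher. In complex II, 2 of 4 were higher and 1 lower, with a median of 0.32. The 13 mitochondrially encoded mRNAs mark the insoluble fraction: their share of counts was 0.00532 and 0.00764% in the cytosolic libraries and 0.374 and 0.531% in the insoluble libraries. The nuclear RNAs MALAT1 and NEAT1 were at 818 and 108 CPM on average in the cytosolic libraries and at 2145 and 321 CPM in the insoluble ones.

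ATP5MK was at 92.4 and 99.0 CPM in the cytosolic and at 31.9 and 30.8 CPM in the insoluble fraction (1.61 ± 0.14, adjusted p = 3.4e-08). UQCRH was at 486 and 601 against 175 and 209 CPM (1.5 ± 0.17), and NDUFA5, an accessory subunit of the matrix arm of complex I, at 113 and 135 against 38.0 and 45.9 CPM (1.57 ± 0.14). Fractions did not overlap for any of these genes. The 7 lower members were on the other side. SDHA was at 79.2 and 90.1 CPM in the cytosolic and 182 and 150 CPM in the insoluble fraction (-0.97 ± 0.12, adjusted p = 2.5e-06), while SDHA has pseudogenes of high similarity. NDUFB9 was at 83.8 and 113 against 188 and 147 CPM (-0.77 ± 0.18), and COX6A1 at 17.7 and 24.2 against 47.6 and 33.6 CPM (-0.96 ± 0.20). NDUFC2 (-0.70 ± 0.14) and NDUFA9 (-0.93 ± 0.22) were lower too, as were NDUFA13 (-1.94 ± 0.27) and NDUFV2 (-1.79 ± 0.20), which share exon bases. The level of this comparison depends on the scaling: DESeq2 size factors put the median of all genes at 0.02 rather than 0.27, and called 54 members higher and 11 lower, with 10 higher and 6 lower at the thresholds of the study. The 2 lower at these thresholds became up to 5 without replicate 2 of either fraction.

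Over the 4 gRNA groups, cytosolic against total RNA had 56 members higher and 11 lower (49.3% and 27.1% of all genes), with a median of 0.29 over the members and 0.17 over all genes. At the thresholds of the study, 0 were higher and 2, NDUFA13 (-1.41 ± 0.14) and NDUFV2 (-1.34 ± 0.10), were lower, against 0.609% and 8.23% of all genes. SDHA was again lower (-0.61 ± 0.06), and ATP5PF, a stalk subunit of the ATP synthase, higher (0.63 ± 0.06). All 12 tested mitochondrially encoded mRNAs were lower, with a median of -5.19.

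**Figure D4:**
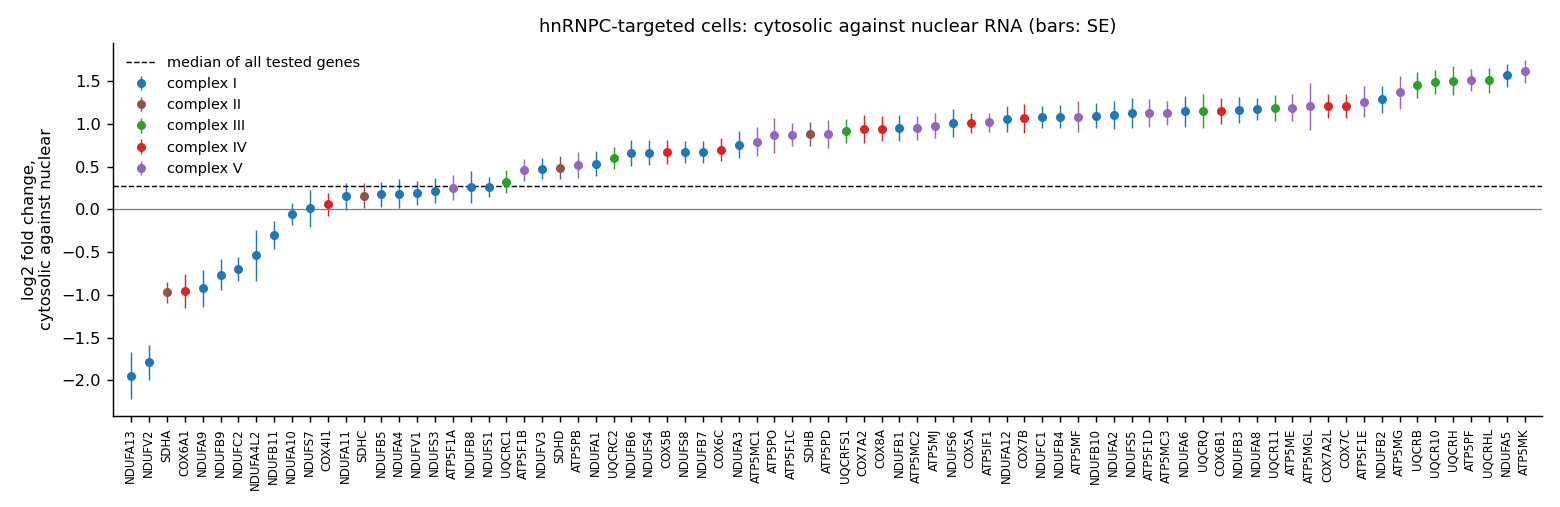
Log2 fold change between the cytosolic and the digitonin-insoluble (nuclear) RNA of hnRNPC-targeted cells (y axis) for 79 of the 80 tested subunit genes in order of their value (x axis), colored by complex, with bars for the SE (n = 2 libraries per fraction). The dashed line at 0.27 is the median of all tested genes. All 9 complex III genes lie above 0, and NDUFA13, NDUFV2 and SDHA are at the low end.

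Intron reads rose in a few members upon hnRNPC targeting. The tables hold 478 introns inside a member, of which 388 lay inside exactly 1 tested gene and 168, in 67 members, passed the filter. At the thresholds of the study, hnRNPC-targeted cells had 7, 10 and 12 higher introns on days 3, 4 and 5, against 2.49%, 3.57% and 4.0% of the 21798 tested introns, and 0 were lower (0.138%, 0.505% and 2.35% of all). A total of 6 introns were higher on all 3 days, among them introns of NDUFB5, ATP5MJ, COX5A, COX7B and NDUFA12. The intron of NDUFB5 at chr3:179336310-179341707 (GRCh37) was at 22.0, 21.6 and 19.3 CPM on day 5 against 2.76, 3.62 and 3.39 CPM in CTRL libraries, 2.69 ± 0.14 on the log2 scale (adjusted p = 8.5e-18), while its gene had -0.31 over the exons. The intron of ATP5MJ at chr14:104380322-104381402 was at 9.56, 8.79 and 7.92 against 2.16, 2.04 and 2.64 CPM (1.94 ± 0.14), with -0.23 for the gene. The intron of COX5A at chr15:75212784-75215934 was at 5.9, 5.41 and 5.32 against 1.9, 1.85 and 1.84 CPM (1.57 ± 0.25), with -0.46 for the gene. Groups did not overlap for any of these introns.

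hnRNP C is known to bind runs of uridines in nascent RNA and to mask splice sites near them. Of the 6 introns higher on all 3 days, 6 held a run of at least 10 T on the strand of the gene, with a median longest run of 19. Of the 15 introns higher on any day, 10 did (66.7%, median 14), and of the 153 not called, 78 did (51.0%, median 10). These counts describe few introns, whose median lengths were 3100, 2839 and 2291 nt. For 4 of the 6, the stretch around the longest run, in capitals, reads as follows in GRCh37.
ATP5MJ (chr14:104381171-104381198, minus strand): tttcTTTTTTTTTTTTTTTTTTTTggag
COX5A (chr15:75213744-75213771, minus strand): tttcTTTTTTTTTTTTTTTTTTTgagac
COX7B (chrX:77156739-77156766, plus strand): cagtttcTTTTTTTTTTTTTTgagacaa
NDUFB5 (chr3:179336981-179337008, plus strand): cctgTTTTTTTTTTTTTTTTTTTaatta

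In ADAR+hnRNPC cells of day 5, 8 member introns were higher and 12 lower, against 5.49% and 8.03% of all tested introns. Among the 8 higher ones were introns of NDUFB5 (2.10 ± 0.14), ATP5MJ, NDUFA12, NDUFC1, NDUFA3, COX5A and COX7B, whose genes had log2 fold changes from -0.83 to -0.14 over the exons. The 12 lower ones were in NDUFS5, COX6C, SDHA, UQCRH, ATP5PF, ATP5MK and NDUFV1, genes that were lower themselves. Without ADAR+hnRNPC D5 replicate 2, 7 introns were lower instead of 12. The intron of NDUFS5 at chr1:39494613-39500063 had -1.04 ± 0.11 and its gene -1.05. In GFP-targeted cells, 1 member intron was called, that of COX5B at chr2:98262653-98263529, which was at 6.78, 8.42 and 6.46 against 3.37, 2.59 and 3.36 CPM (1.22 ± 0.20, adjusted p = 0.0074), the only called of all tested introns (0.00459%). It was also higher in hnRNPC-targeted cells of day 5 (1.04 ± 0.20), which share these CTRL libraries. It was not called in GFP-targeted cells without CTRL D5 replicate 2 or replicate 3.

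ADAR turns adenosines in paired RNA into inosines, which are read as G. Editing sites inside the members numbered 3138 in 48 members in study 1 and 1662 in 33 members in study 2, and reads with G were summed over them. In CTRL cells of day 5, 4.26 ± 0.317% of the reads at these sites were edited (SD, n = 3), with 3.91, 4.52 and 4.36% in the 3 libraries. ADAR-targeted libraries held 1.49, 1.64 and 1.67%, and ADAR+hnRNPC libraries 2.71, 2.69 and 2.79%, so that the groups did not overlap. hnRNPC-targeted (4.58 ± 0.253%) and GFP-targeted libraries (4.11 ± 0.215%) overlapped with CTRL. IFN-alpha libraries of day 4 held 6.44, 8.54 and 9.21% against 4.06, 4.61 and 4.21% in CTRL. In study 2, where the sites were another set, CTRL total RNA held 9.0 and 8.32% and ADAR total RNA 2.75 and 2.69%. The authors required editing in at least 1 library with intact ADAR for a site to be kept, so editing was part of the choice of sites, and no test was made.

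Members on chromosomes 8 and 18 were left out of the choice of sites shown here. Among the other members, the most edited site of each of the 5 with the highest values in CTRL cells is shown. The GRCh37 sequence is on the strand of the gene, with the edited A in capitals. These sites were taken among 796 sites with at least 10 reads in every CTRL and ADAR library of study 1, and reads of days 3, 4 and 5 were summed.
NDUFV3 (chr21:44331287-44331307, plus strand): ggtttgcagtAagccgagatc
NDUFS1 (chr2:206982247-206982267, minus strand): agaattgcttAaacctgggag
NDUFB1 (chr14:92586294-92586314, minus strand): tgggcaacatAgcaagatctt
COX7A2 (chr6:75948288-75948308, minus strand): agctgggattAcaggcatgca
NDUFC2 (chr11:77779628-77779648, minus strand): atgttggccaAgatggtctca
The sites of NDUFV3, NDUFS1 and NDUFC2 lie in untranslated parts of exons and those of NDUFB1 and COX7A2 in introns of the canonical transcript. NDUFV3 had 73.1% edited of 416 reads in CTRL and 31.0% of 391 in ADAR-targeted cells. NDUFS1 had 61.8% of 545 and 29.6% of 520, and NDUFB1 27.4% of 347 and 9.34% of 332. The values were 15.5 and 9.01% for COX7A2 and 11.2 and 2.79% for NDUFC2. All 5 sites were lower in ADAR-targeted cells. They were chosen for high editing in these same CTRL libraries, which favors a fall, and the share of the 796 sites that were lower was not counted.

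**Figure D5:**
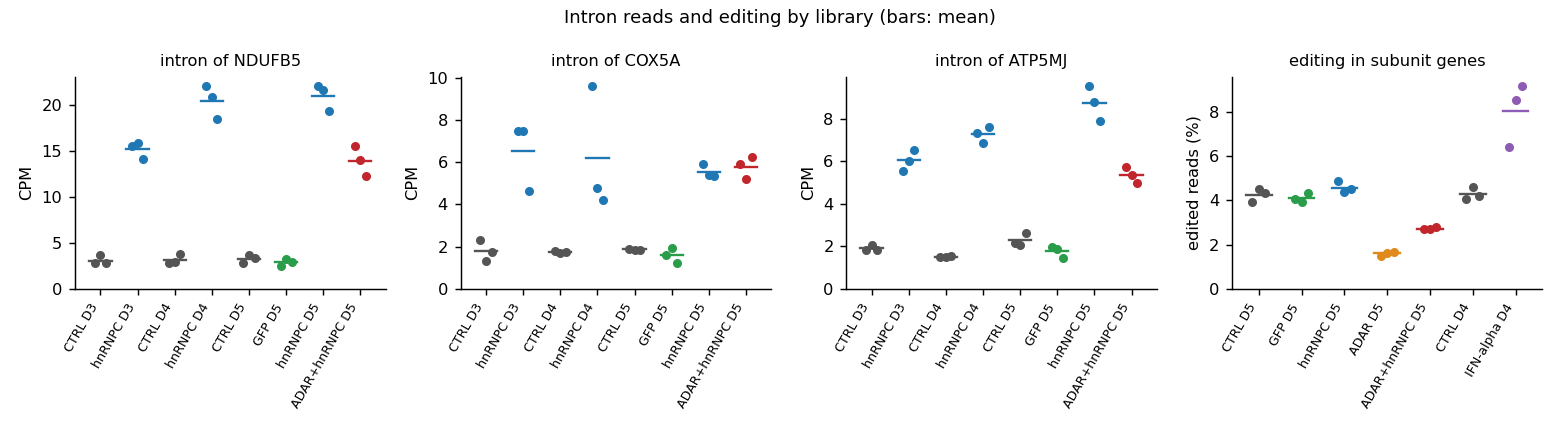
Reads of 1 intron each of NDUFB5, COX5A and ATP5MJ (y axis, CPM) and edited reads over all sites in subunit genes (right, y axis, %) for libraries of study 1 by group (x axis). Points are libraries and bars are means. The intron of NDUFB5 is at 19.3 to 22.0 CPM in hnRNPC-targeted cells of day 5 and at 2.76 to 3.62 CPM in CTRL, and mean editing falls from 4.26 to 1.60% in ADAR-targeted cells.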

How the data were processed

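Gene, intron and editing-site tables of 48 libraries (study 1) and 18 libraries (study 2) were used. Per the labels and methods, the authors aligned paired reads to GRCh37 with STAR 2.5.4a and counted uniquely mapped reads with featureCounts on GENCODE annotation, and the deposited values are raw counts. Counting did not use strand as far as stated, so antisense and overlapping genes cannot be separated. Editing sites came from SAILOR, with counts of edited and other reads deposited by the authors. Columns with no sample numbered 0.

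Libraries were scaled by TMM, and genes with an average log2 CPM of at least 0.5 (introns 1) were tested with edgeR 4.0.16 (quasi-likelihood, prior count 2, R 4.3.3) in 1 model per study, with Benjamini-Hochberg adjustment over all tested features and a threshold of 0.05. Alternatives were limma 3.58.1 (voom), DESeq2 1.42.0, RLE factors, no filter, a replicate block, GFP libraries as control, leaving out each library and, added after seeing the data, GC-corrected offsets and crossed replicate numbers. Lengths and GC shares came from canonical transcripts. Scripts were tested on simulated data. Per the study's methods, replicates came from independent experiments on different days, and p-values measure the spread between them.

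Named members were those past the thresholds of the study and then those with the lowest adjusted p, up to 8 per direction (4 for ADAR, GFP, IFN-alpha and the interaction), with core complex I, complex II, c ring and tissue isoforms given as groups; members named outside this rule were chosen after their values were seen. The members and lists were chosen with earlier results of these data known. Same-numbered libraries correlated over 0.1 in every pair for hnRNPC days 4 and 5, ADAR+hnRNPC days 3 and 4, ADAR and GFP, but not for hnRNPC day 3 (lowest -0.17), ADAR+hnRNPC day 5 (0.07) or IFN-alpha (-0.03). 1 member is not reported by name here.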

Additional observations from a re-analysis of the deposited data

Results flagged for a closer look

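The interaction on day 5, which tests whether the change in ADAR+hnRNPC cells differs from the sum of the single changes, passed the threshold for 42 members. The values were -0.53 for SDHA, -0.74 for COX6B1, -0.83 for NDUFA11, -0.74 for ATP5MC1 and 0.46 for NDUFS4 on the log2 scale (edgeR). For 12 members, all 3 hnRNPC-targeted libraries lay above all CTRL libraries on 1 day and below them on another, among them NDUFS7, NDUFB7 and ATP5PF. This difference between days was not tested, and the share of all tested genes that did the same was not counted. Over all tested genes with a GC share, the correlation of the hnRNPC log2 fold change with GC share also turned. It was -0.321 on day 3 and 0.348 on day 5. For GFP-targeted cells of day 5, compared with the same CTRL libraries, it was 0.625. Among the 12 members, ATP5F1D, NDUFB7 and NDUFS7, which moved from below to above CTRL, had GC shares of 69.55, 64.86 and 66.89%. Those that moved from above to below CTRL had 38.61% (COX7A2L) to 46.69% (ATP5PO). Whether these turns followed GC share or the CTRL libraries was not tested.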

How the results depend on the processing

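Some directions turned. Without CTRL total replicate 2, the median over the members went from 0.15 to -0.04 for hnRNPC total RNA and from 0.12 to -0.04 for ADAR total RNA, and with DESeq2 that of hnRNPC day 3 went from -0.04 to 0.02. With GC-corrected offsets, ATP5F1D in hnRNPC-targeted cells of day 5 went from 0.31 to -0.22 and was called in both, and for cytosolic against total RNA NDUFS7 went from -0.26 to 0.09, SDHD from 0.17 to -0.07 and COX6C from 0.16 to -0.07, all no longer called. Counts of called members moved by over 1.5 times as follows. For ADAR day 5, 7 members became 11 with the replicate block, 0 with GFP as control, 17 with DESeq2 and 2 with GC-corrected offsets. For GFP day 5, 4 became 9 with DESeq2 and 0 with GC-corrected offsets. For hnRNPC total RNA, 0 became 1 with RLE factors, 2 without a filter, 3 with DESeq2 and 2 with GC-corrected offsets. For ADAR total RNA, 1 became 2 with limma-voom, RLE factors, DESeq2 and GC-corrected offsets, and 0 without a filter. Leaving out 1 library gave 0 to 8 for ADAR day 5, 0 to 7 for GFP day 5, 4 to 10 for IFN-alpha, 0 to 28 for hnRNPC total RNA, 7 to 55 for ADAR+hnRNPC total RNA, 0 to 30 for ADAR total RNA and 0 to 1 for introns in GFP-targeted cells. It also gave 65 to 71 for ADAR+hnRNPC day 5 and 49 to 57 for hnRNPC day 5. With sites of at least 10 reads, editing was 1.48% for ADAR day 5, 2.65% for ADAR+hnRNPC day 5 and 2.68% for ADAR cytosolic RNA. Between fractions, the 33 members higher at the thresholds of the study became 10 with DESeq2, 15 with GC-corrected offsets and 22 to 39 when 1 library was left out. The cause of these shifts was not tested.

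The replicate block gave 70 members for ADAR+hnRNPC day 5, 59 for hnRNPC day 5 and 11 for ADAR day 5, and changed no other count by more than 1.5 times. With crossed replicate numbers, 0 members were called for hnRNPC total RNA and 65 between fractions. With 2 libraries per group, study 2 limits what could be detected.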
